A study of Mus musculus with 16 samples.

Results

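The genes described here encode the proteins of the cytosolic ribosome, except for Rps4l, which RefSeq annotates as a transcribed pseudogene. They were chosen by name, as mouse gene symbols that start with Rpl or Rps followed by a number, together with Rplp0, Rplp1, Rplp2 and Rpsa, and by a mean of at least 10 CPM (read pairs scaled to a fixed library total) over the 16 libraries. Of 47593 genes in the count table, 88 matched the names and 79 reached the level. The 79 members were 47 large subunit and 32 small subunit genes. They comprised 45 canonical large subunit genes with the paralogs Rpl22l1 and Rpl7l1, and 31 canonical small subunit genes with the paralog Rps4l. Rps4l was the member nearest the limit, at a mean of 19.6 CPM, and Rps27l was the nearest gene below it, at 8.48 CPM. The other 8 genes below the limit were Rpl24 at 0.584 CPM, Rpl3l at 0.312, Rps3a3 at 0.347, Rps3a2 at 0.21, Rpl6l at 0.179, Rpl39l at 0.044, and Rps12l1 and Rpl10l with no read pair. Rpl24, a canonical large subunit gene, had between 6 and 26 read pairs in each library. In the annotation 47% of its exon bases are shared with Gm28037, which was listed at 0 in each of the 16 libraries, and pairs that fall on exons of more than 1 gene are not counted by default. The level of Rpl24 is therefore uncertain.

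Bulk RNA sequencing was carried out on the cortex of 5xFAD mice, which express mutant human transgenes of familial Alzheimer's disease in neurons from the Thy1 promoter and deposit amyloid-β early. All mice carried the transgenes, so no library shows a brain without amyloid. Mice of both sexes received control diet (vehicle) or rapamycin diet from 2 months of age and were sampled at 5 months, giving 4 libraries for each of 4 groups: vehicle-fed females (FC) and males (MC), and rapamycin-fed females (FR) and males (MR). Libraries of FC, MC and MR are numbered 1 to 4, and those of FR are 1, 2, 4 and 5. The labels place FC4, FR4, FR5, MC4 and MR4 in batch 2 and the other 11 libraries in batch 1. Libraries held 16393501 to 20593089 counted read pairs. The labels number the samples within each group without saying that each came from a separate mouse. The study's text speaks of mice pooled for sequencing in one place and of single mice in another, so n counts libraries, and the p-values measure the spread between them, which may be partly technical. The library labelled MR4 held Xist at 512 CPM and 0 Y-linked read pairs, like the female libraries. The other male libraries held 1915 to 2231 Y-linked read pairs. MR4 is nevertheless called by its label throughout and counts as male in every fit. All 6 markers of cortical glutamatergic neurons were detected in every library, summing to 4208 to 6180 CPM, and 1 of them was called lower with rapamycin. In bulk tissue, fewer cells of a type and less RNA per cell cannot be told apart.

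The ribosome joins a small subunit, which decodes messenger RNA, to a large subunit, which forms the peptide bond. Nearly every ribosomal protein is present in a single copy per ribosome, so the genes are expressed together in all cells. Their mRNAs are short and typically start with a cytosine followed by an uninterrupted stretch of pyrimidines, the 5′ terminal oligopyrimidine (TOP) motif. Rapamycin inhibits mTORC1, the kinase complex that promotes translation of TOP mRNAs, mainly by acting on ribosome loading rather than on mRNA amount. RNA-seq of total tissue measures only mRNA amount.

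The sequences around the annotated transcription start were searched for such pyrimidine stretches. RefSeq promoter entries on GRCm38.p6 matched 58 of the 79 members. Windows of 25 bases before and 25 bases from the start are shown for the 5 members of smallest p that had a single entry, for Rps6, and for the 3 members of lowest fold change that had an entry. Capitals mark the longest run of bases that are each C or T on the strand of the gene, where that run had at least 8 bases. Windows without capitals held no such run.
Rpl14: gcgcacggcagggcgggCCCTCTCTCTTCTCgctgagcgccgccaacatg
Rplp2: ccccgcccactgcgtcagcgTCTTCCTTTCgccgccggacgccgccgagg
Rps15: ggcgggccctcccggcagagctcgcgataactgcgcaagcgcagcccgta
Rpl28: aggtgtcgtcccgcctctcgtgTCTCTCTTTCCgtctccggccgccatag
Rpl31: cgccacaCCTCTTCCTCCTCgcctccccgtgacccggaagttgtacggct
Rps6: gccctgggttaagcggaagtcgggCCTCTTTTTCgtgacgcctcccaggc
Rps15a: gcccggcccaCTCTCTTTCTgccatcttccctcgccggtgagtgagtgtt
Rpl7l1: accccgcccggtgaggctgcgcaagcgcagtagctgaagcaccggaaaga
Rpl5: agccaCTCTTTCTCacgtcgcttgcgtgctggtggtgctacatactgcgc
The windows lie at chr9:120571492-120571541 (plus strand) for Rpl14, chr7:141447626-141447675 (plus strand) for Rplp2, chr10:80292406-80292455 (plus strand) for Rps15, chr7:4792940-4792989 (plus strand) for Rpl28, chr1:39367826-39367875 (plus strand) for Rpl31, chr4:86857343-86857392 (minus strand) for Rps6, chr7:118116123-118116172 (minus strand) for Rps15a, chr17:46782632-46782681 (minus strand) for Rpl7l1 and chr5:107900503-107900552 (plus strand) for Rpl5. Each covers the end of the promoter and the beginning of the first exon. A run of at least 8 was found for 31 of 58 members (53.4%) and for 22.3% of the 27025 genes with a promoter entry. At the annotated start base itself, a C followed by 4 bases of C or T stood in 22.4% of members and 3.01% of genes. The longest run, of 21 bases, belonged to Rpl7a. The median log2 fold change with rapamycin was 0.38 for the 31 members with a run and 0.36 for the 27 without. Rps15a and Rpl5, which had 2 of the lowest fold changes, both carried a run. In these genes and in Rpl31 the run ended before the annotated start, outside the annotated transcript. Annotated starts can differ from the starts used in cortex, and 1 strand was searched, so these counts describe letters only.

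Read pairs on the 79 genes together made up 1.55%, 1.64%, 1.56% and 1.06% of all counted pairs in FC1 to FC4, and 2.06%, 2.19%, 1.09% and 1.52% in FR1, FR2, FR4 and FR5. In males the share was 1.55%, 1.46%, 1.45% and 0.971% in MC1 to MC4, and 1.67%, 2.2%, 1.42% and 1.48% in MR1 to MR4. The groups overlapped in both sexes. FR1, FR2 and MR2 stood above every other library, whereas FC4, MC4 and FR4, all of batch 2, stood below every other library. In batch 1, 6 vehicle libraries covered 1.45% to 1.64% and 5 rapamycin libraries 1.42% to 2.2%. In batch 2, the 2 vehicle libraries had 0.971% and 1.06%, and the 3 rapamycin libraries had 1.09% to 1.52%, without overlap.

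**Figure D1:**
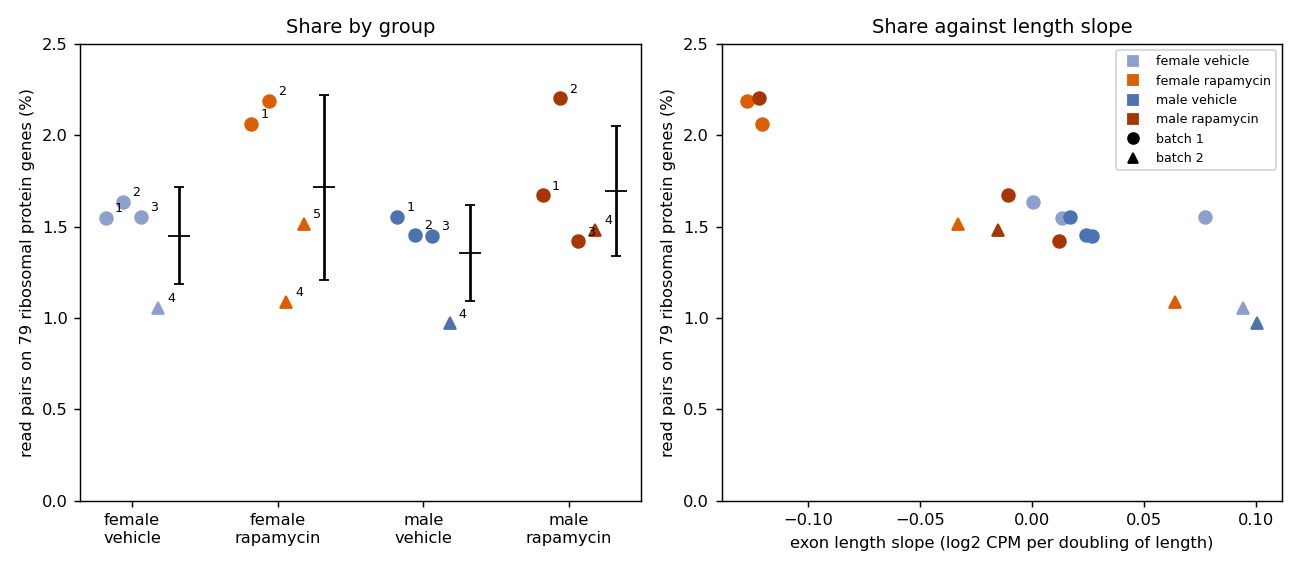
Share of counted read pairs on the 79 ribosomal protein genes (percent) by group, with replicate numbers and mean ± SD (n = 4), and against the exon length slope of each library. Circles are batch 1 and triangles batch 2. FR1, FR2 and MR2, at 2.06% to 2.2%, lie apart at the lowest slopes.

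The same 3 libraries differed from the rest over genes in general. As a measure of this, the exon length slope gives by how much log2 CPM, relative to the mean over libraries, changed for each doubling of exon length in a given library, and a negative value means more reads on short genes. It was -0.12, -0.13 and -0.12 in FR1, FR2 and MR2. In the other 13 libraries it ran from -0.03 to 0.10, and the 3 libraries with the smallest ribosomal share, MC4, FC4 and FR4, were among the 4 with the highest slopes, together with FC3. Mitochondrially encoded genes took 6.88% to 6.99% of read pairs in FR1, FR2 and MR2, and 2.64% to 5.47% in the others. Of the 79 members, 78 had their highest level in 1 of these 3 libraries: 12 in FR1, 19 in FR2 and 47 in MR2. The exception was Rps15a, highest in FC3. The lowest level was in MC4 for 63 members, in FC4 for 9, in FR4 for 6 and in MR3 for 1, which was Rpl3.

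**Figure D2:**
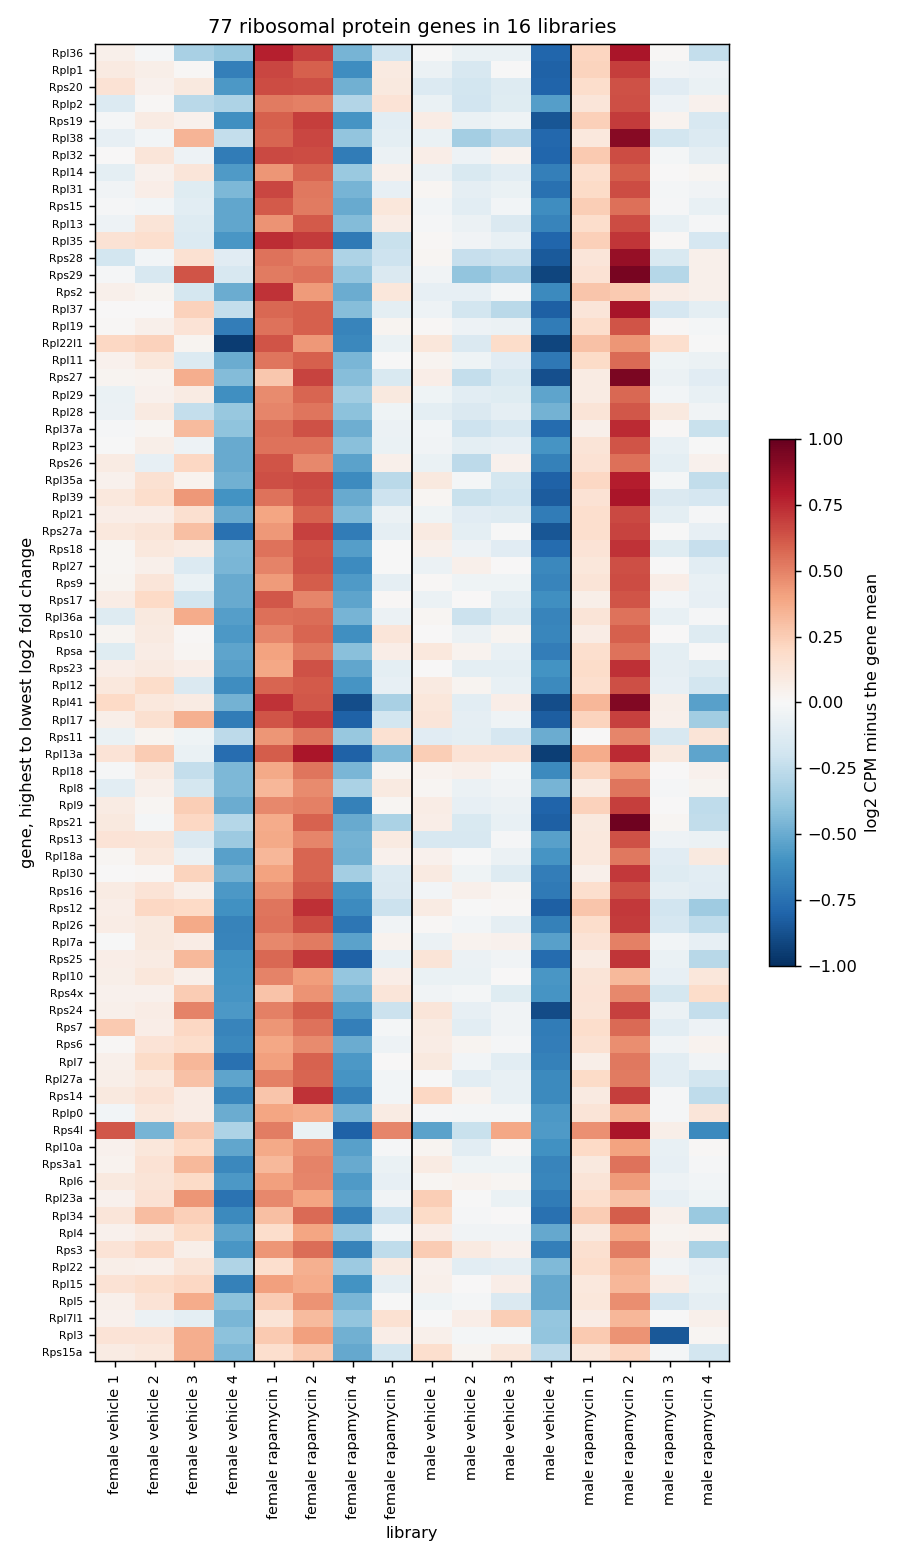
Level of 77 ribosomal protein genes (rows, highest to lowest fold change) in each library (columns) as log2 CPM minus the gene's mean over 16 libraries, with colours limited to the range from -1 to 1. Whole columns share a colour: FR1, FR2 and MR2 are high and MC4, FC4 and FR4 low for nearly all genes.

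The members varied together across libraries. Their log2 CPM had a median SD of 0.38 over the 16 libraries, but around the common profile, taken as the members' median in each library, the median SD was 0.11. Rpl21 followed the profile most closely, at an SD of 0.05, and 72 of 79 members stayed under 0.2. The members that departed most were Rps4l at 0.41, Rpl3 and Rpl13a at 0.25 each, Rps29 at 0.25, Rpl41 at 0.22, Rps15a at 0.22 and Rpl7l1 at 0.20. Rpl3 departed most in MR3 and Rps29 most in FC3, while Rpl13a and Rpl41 lay below the profile in MR4. Among them, Rpl41 was chosen after its values were seen.

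With both sexes combined and sex and batch as terms, the fitted level of all 79 members was higher on rapamycin diet than on vehicle. The same sign was found for 52.3% of all tested genes. The members vary together over the libraries, so their 79 signs are not independent. With edgeR's quasi-likelihood test and p-values adjusted over 16553 genes (Benjamini-Hochberg), 56 members were called higher and 0 lower at an adjusted p under 0.05. Over all tested genes, 6.46% were called higher and 6.86% lower. At an unadjusted p under 0.05, 76 members passed, beside 5039 of all 16553 genes. The differences were small: log2 fold changes ran from 0.02 to 0.50 with a median of 0.37, which is 1.29-fold, beside a median of 0.02 over all tested genes. No member reached a fold change of 1.5 with an adjusted p under 0.05, a combination met by 2.26% of all genes. Large and small subunit genes had the same median, 0.37, with 36 of 47 and 20 of 32 called. For every member the vehicle and rapamycin libraries overlapped when batches were pooled. DESeq2, run as an alternative, called 71 of 79, and the share of all genes it called is not given here. With edgeR the count was 0 without the batch term, 0 with the exon length slope described above as a covariate, and 21 to 24 without FR1, FR2 or MR2. With FR1, FR2 or MR2 left out, 74 to 75 members had an unadjusted p under 0.05. Markers of other cells also differed between libraries: 5 microglial markers, none at 0 and none called, summed to 346 to 560 CPM on vehicle and 217 to 476 on rapamycin. The 6 choroid plexus markers, 1 of them called lower, summed to 1957 CPM in MC4 and 13.4 to 330 in the other libraries, and without MC4 28 members were called. The 5 oligodendrocyte markers, none called, summed to 7795 CPM in FR2 and 2963 to 5870 in the other libraries. The 6 striatal markers, none called, summed to 319 CPM in FR1 and 121 to 270 in the others. The part of all these markers in the result was not tested.

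The 56 called members had log2 fold changes from 0.29 for Rpl10a to 0.50 for Rpl36. The members without a call included the large subunit genes Rpl3, Rpl4, Rpl5, Rpl6, Rpl7, Rpl7l1, Rpl15, Rpl22, Rpl23a, Rpl26 and Rpl34, and the small subunit genes Rps3, Rps3a1, Rps4l, Rps4x, Rps7, Rps14, Rps15a, Rps21, Rps24, Rps25 and Rps29. Values without a call overlapped those of the called members, from 0.02 for Rps15a to 0.44 for Rps29, and 3 members, Rps4l, Rpl3 and Rps15a, also missed an unadjusted p of 0.05. Rps24, at an edgeR adjusted p of 0.0517, lay just outside the threshold, and Rpl41, at 0.0448, just inside.

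**Figure D3:**
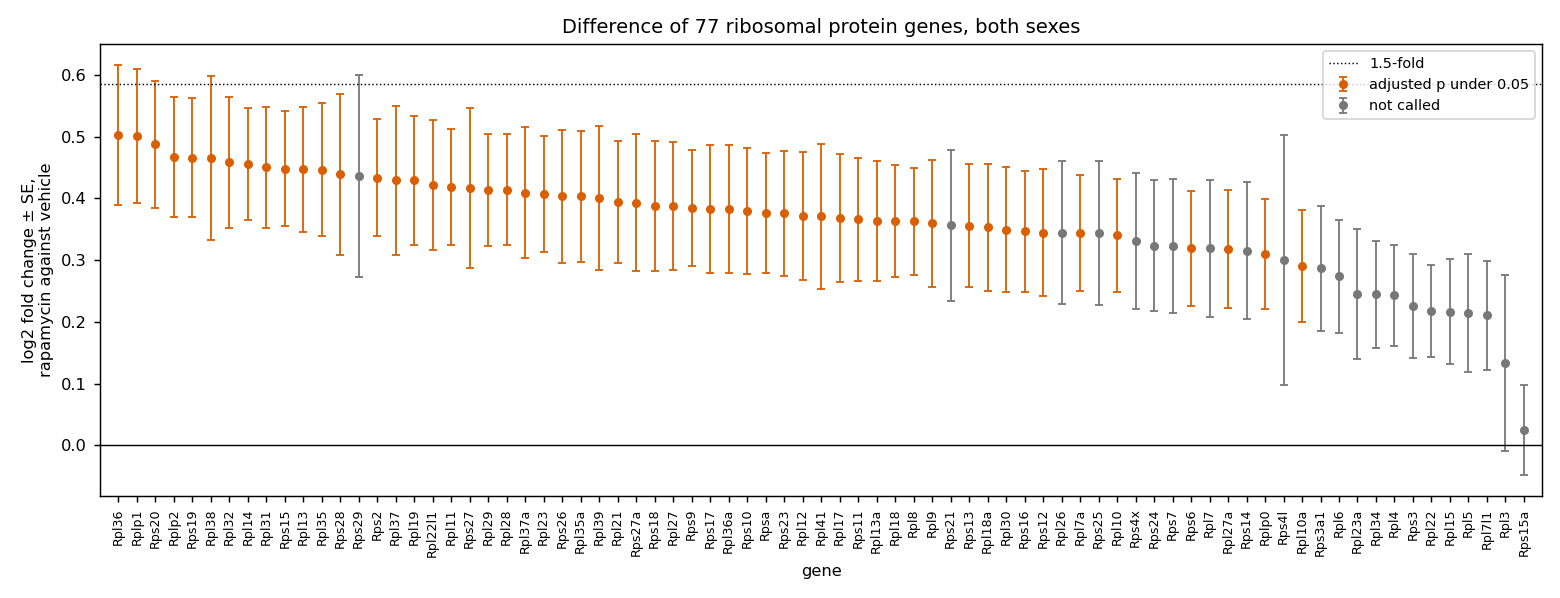
Log2 fold change ± SE of 77 ribosomal protein genes, rapamycin against vehicle in both sexes (8 libraries each), with genes called by edgeR in orange. Points run from 0.50 for Rpl36 to 0.02 for Rps15a, and none reaches the dotted line at 1.5-fold.

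The member with the smallest p was Rpl14, a large subunit protein. Its level was 175, 193, 205 and 127 CPM in FC, 255, 280, 145 and 195 in FR, 180, 169, 174 and 117 in MC, and 211, 286, 188 and 190 in MR. FR1, FR2 and MR2 were highest, and the vehicle and rapamycin libraries overlapped. In batch 1 the vehicle libraries covered 169 to 205 CPM and the rapamycin libraries 188 to 286, and in batch 2 the ranges of 117 to 127 and 145 to 195 did not overlap. The fitted log2 fold change was 0.46 (SE 0.09, adjusted p = 0.0119 by edgeR).

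Small subunit genes filled 4 more of the 10 places of smallest p. Rps19, whose human counterpart is the gene most often mutated in Diamond-Blackfan anaemia, covered 79.6 to 153 CPM (median 142) on vehicle and 96.1 to 235 (median 159) on rapamycin, with a log2 fold change of 0.47 (SE 0.10, edgeR adjusted p = 0.0128). Rps15, a protein of the subunit head, covered 171 to 260 CPM (median 251) on vehicle and 186 to 402 (median 298) on rapamycin, and rose by 0.45 (SE 0.09, edgeR adjusted p = 0.0129). In batch 1 its vehicle range of 244 to 260 lay just below the rapamycin range of 261 to 402, and in batch 2 the ranges of 171 to 183 and 186 to 284 were also apart. Rps20 rose by 0.49 (SE 0.10, edgeR adjusted p = 0.0133) and Rps2 by 0.43 (SE 0.09, edgeR adjusted p = 0.014). Rps6, the S6 kinase substrate whose phosphorylation is a standard readout of mTORC1 activity, had 262, 286, 295 and 167 CPM in FC and 341, 362, 185 and 251 in FR. In males it had 274, 265, 259 and 161 CPM in MC and 289, 360, 255 and 267 in MR. The 4 groups overlapped, and FR1, FR2 and MR2 were again highest. Rps6 was called at 0.32 (SE 0.09, edgeR adjusted p = 0.0328), in the lower part of the members' range. It was called in 6 of the 16 fits that left out 1 library, with an edgeR adjusted p of up to 0.0811, without MC4.

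Among large subunit genes, those of the P stalk, which recruits and activates translation factors, were all called. Rplp1 covered 220 to 411 CPM (median 379) on vehicle and 251 to 622 (median 431) on rapamycin, and its log2 fold change of 0.50 (SE 0.11, edgeR adjusted p = 0.014) was among the highest. Rplp2 rose by 0.47 (SE 0.10, edgeR adjusted p = 0.0128), and Rplp0, the anchor of the stalk, by 0.31 (SE 0.09, edgeR adjusted p = 0.0318), a call kept in 7 of the 16 fits that left out 1 library. The remaining members of the 10 smallest p were Rpl28, Rpl31 and Rpl29, at 0.41, 0.45 and 0.41, each with an edgeR adjusted p of 0.014. Rpl36 had the highest log2 fold change, 0.50, and was chosen after its values were seen.

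Rpl5 and Rpl11, which bind 5S rRNA and with it hold the p53 regulator Mdm2, did not behave alike against the threshold. Rpl11 rose by 0.42 (SE 0.09, edgeR adjusted p = 0.0151), whereas Rpl5 was fitted at 0.21 (SE 0.10, edgeR adjusted p = 0.136). The difference between them was not tested, and 26.7% of the exon bases of Rpl5 are shared with other genes. Rpsa, the small subunit protein also known as the laminin receptor, was called at 0.38 (SE 0.10, edgeR adjusted p = 0.0222). Rps27a, made as a fusion with ubiquitin, was called at 0.39 (SE 0.11, edgeR adjusted p = 0.0298). With 1 library left out, the call of Rpsa held in 12 of 16 fits and that of Rps27a in 7. Of the X-linked members, Rpl10, Rpl36a and Rpl39 were called at 0.34, 0.38 and 0.40, with edgeR adjusted p of 0.0244, 0.0255 and 0.0332, and held in 11, 10 and 5 of those fits. The fourth, Rps4x, was fitted at 0.33 (SE 0.11, edgeR adjusted p = 0.054).

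Rps15a had the lowest fold change. Its level was 140, 142, 171 and 97.3 CPM in FC, 149, 159, 92.9 and 117 in FR, 149, 135, 143 and 111 in MC, and 144, 154, 131 and 117 in MR. No group stood apart in either batch, and the log2 fold change was 0.02 (SE 0.07, edgeR adjusted p = 0.853). It also had the longest annotation of all members, with 6270 exon bases and a principal transcript of 5179 bases. The next lowest, Rpl3, which lies close to the peptidyl transferase centre, was fitted at 0.13 (SE 0.14, edgeR adjusted p = 0.563). It had a mean of 518 CPM over the libraries, and 281 CPM in MR3 against 362 to 692 in the other 15 libraries. In MR3, 3117 read pairs were assigned to its processed pseudogene Rpl3-ps1, against 22 to 98 in every other library. With the pairs of both loci summed, a choice made after seeing the data, the log2 fold change was 0.20 (SE 0.10, edgeR adjusted p = 0.17). The other members of lowest fold change were Rpl7l1 at 0.21, Rpl5 at 0.21 and Rpl15 at 0.22, with edgeR adjusted p of 0.115, 0.136 and 0.0943.

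The paralogs were compared with their parent genes. Rpl22l1 covered 19.5 to 44.2 CPM on vehicle and 24.1 to 58.4 on rapamycin and was called at 0.42 (SE 0.11, edgeR adjusted p = 0.0207), in 14 of the 16 fits that left out 1 library. Its parent Rpl22 was fitted at 0.22 (SE 0.07, edgeR adjusted p = 0.061). Rpl7, the parent of Rpl7l1, was fitted at 0.32 (SE 0.11, edgeR adjusted p = 0.0638). Rps4l, annotated in RefSeq as a transcribed pseudogene, covered 12.5 to 28.6 CPM on vehicle and 10.6 to 32.7 on rapamycin without a call, at 0.30 (SE 0.20, edgeR adjusted p = 0.338). Rps27l, a p53 target below the level limit, was fitted at 0.39 (SE 0.13, edgeR adjusted p = 0.054), and its parent Rps27 was called at 0.42 (SE 0.13, edgeR adjusted p = 0.0417), in 4 of those 16 fits. The testis and muscle paralogs Rpl10l, Rpl39l and Rpl3l were at or under 0.312 CPM.

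Levels between members are compared per kilobase. Per kilobase of exon in the authors' annotation, the highest levels were those of Rplp1 at 811, Rps15 at 428, Rpl13a at 409, Rps3a1 at 348 and Rpl8 at 348 CPM. The lowest were Rpl7l1 at 17, Rpl22l1 at 19.7, Rps4l at 20.8, Rps15a at 21.4 and Rps20 at 30.6 CPM per kilobase. The low places of Rps15a and Rps20 depend on their long annotated lengths. Before division by length they covered 92.9 to 171 and 69.1 to 190 CPM over the libraries. Whether the annotated lengths are those of the mRNAs in cortex was not tested. Per kilobase of principal transcript, Rplp1 at 804 and Rps15 at 539 were again highest, and Rpl7l1 at 17 lowest. Ribosomal protein genes have many processed pseudogenes, and pairs that align to several loci are dropped by default, so a level per kilobase can fall short of the true one by an amount that was not tested. Of the genes highest per kilobase, Rpl13a and Rpl8 were called at 0.36 each (edgeR adjusted p of 0.0247 and 0.0176), and Rps3a1 was fitted at 0.29 (edgeR adjusted p = 0.0659). Exons of 30 members overlap another gene, by up to 66.2% of exon bases in Rpl35.

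In each sex alone the fitted differences pointed the same way in all 79 members, and none was called. Of all tested genes, 52.1% were fitted higher in females and 51.3% in males. The members vary together over the libraries, so their signs are not independent. In females the median log2 fold change was 0.35, the lowest adjusted p by edgeR was 0.0709 for Rps15, and 51 members had an unadjusted p under 0.05. Over all genes 0.0121% were called in females, and 3818 of 16553 had an unadjusted p under 0.05. In males the median was 0.38, the lowest adjusted p by edgeR was 0.363, and 0% of all genes were called. There 65 members had an unadjusted p under 0.05, beside 1990 of 16553 genes. The counts at an unadjusted p under 0.05 rest partly on single libraries: in females 51 became 28 without FR2, 31 without FR1 or FR5, and 70 without FR4. In males 65 became 21 without MR2, 24 without MR4, which carries female-level Xist, and 39 without MC4. Without the batch term they were 1 in females and 7 in males. The counts over all genes in these refits are not given here. DESeq2 called 20 members in females and 0 in males, and the shares of all genes it called are not given here. MR4, despite its female-level Xist, counts as male in the male fit and in the interaction. The interaction of sex and treatment was called for 0 members by edgeR and by DESeq2, and for 0% of all genes by edgeR. In edgeR, 0 members had an unadjusted p under 0.05, beside 360 of 16553 genes.

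The smallest interaction p belonged to Rps29, a zinc-binding small subunit protein. It had 90.8, 81.7, 141 and 81.8 CPM in FC, 131, 133, 70.0 and 82.5 in FR, 89.1, 69.6, 72.8 and 48.5 in MC, and 101, 176, 75.1 and 94.5 in MR. FC3 stood above the other FC libraries and MR2 above the other MR libraries. The log2 fold change was 0.17 (SE 0.22) in females and 0.70 (SE 0.22) in males, with a difference of -0.53 (edgeR unadjusted p = 0.104, adjusted p = 0.999). The male value includes MR4, with its female-level Xist. Rps21 and Rps27 followed, at differences of -0.30 each (edgeR unadjusted p of 0.234 and 0.25).

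Between vehicle-fed females and males, 0 members were called, beside 0.0121% of all genes. An unadjusted p under 0.05 was reached by 1 member, Rps29, beside 587 of 16553 genes. By sign, 76 of 79 members were fitted higher in females, beside 49.6% of all genes. The median was 0.13 beside -0.00165 over all genes, and the members' signs are not independent. Rps29 was 0.52 higher in females (SE 0.22, edgeR unadjusted p = 0.029, adjusted p = 0.999), Rpl39 0.34 (SE 0.16) and Rpl38 0.37 (SE 0.19). With rapamycin in both sexes, Rpl38 was called at 0.47 (SE 0.13, edgeR adjusted p = 0.0305). This comparison shares the vehicle libraries with the interaction, so the values for Rps29 in both are not independent.

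The batch term was larger than the treatment term. All 79 members were fitted lower in batch 2 than in batch 1, 77 were called lower by edgeR, beside 16.5% of all genes, and the median log2 difference was -0.59. In batch 1 alone the median log2 fold change with rapamycin was 0.38 and 24 members were called, beside 3.42% of all genes. In batch 2 alone, with 2 vehicle and 3 rapamycin libraries, the median was 0.41 with 0 members called by edgeR, beside 0% of all genes, and 18 members at an unadjusted p under 0.05. This last fit was chosen after seeing the data, and its count of all genes at an unadjusted p under 0.05 is not given here. Treatments were present in both batches, and the direction was the same within each.

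Fold change depended on length over all genes, and the members are short. Their median principal transcript, the transcript GENCODE marks as the main one, had 886.5 bases, against 3072 over the tested genes that have one. Among genes that are not members, the median log2 fold change was 0.32 for transcripts from 500 to under 1000 bases, 0.19 from 1000 to under 2000, 0.02 from 2000 to under 4000 and -0.16 from 4000. The 40 members from 500 to under 1000 bases had a median of 0.38 with 80.0% called, and the 649 other genes of that class 33.3% called. From 1000 to under 2000 bases, the 23 members had a median of 0.35 and 65.2% called, and 2830 other genes had 15.0% called. Of the 6 members with principal transcripts of at least 2000 bases, 2 were called, Rps20 (3706 bases) and Rpl18 (2989 bases), and 4 were not, Rps15a, Rpl7l1, Rpl22 and Rpl5. For Rpl18 the authors' annotation holds only 679 exon bases, so the 2 annotations differ for this gene. Whether the annotated lengths of these 6 members, Rps15a and Rps20 among them, are those of the mRNAs in cortex was not tested.

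**Figure D4:**
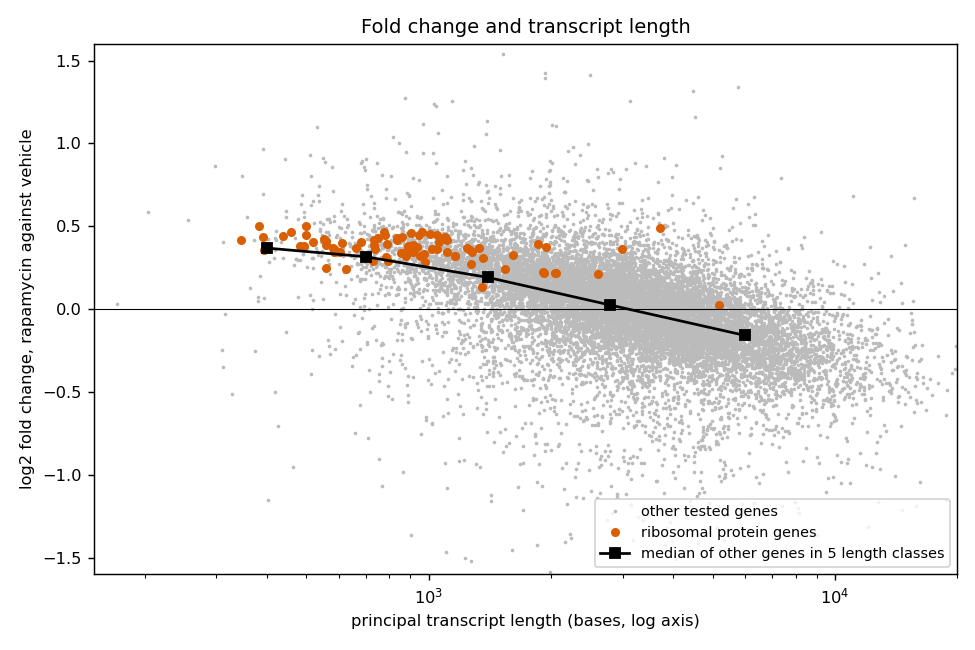
Log2 fold change, rapamycin against vehicle, against principal transcript length (log axis) for 14218 tested genes; a few genes beyond 1.6 in size are not drawn. The black squares, placed at a nominal length within each class, fall from 0.35 under 500 bases to -0.16 from 4000 bases, and most ribosomal protein genes (orange) lie on or above them.

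Other genes of like length and level had smaller positive differences on the whole. Tested genes within the members' 5th to 95th percentiles of principal transcript length (430.55 to 2134.25 bases) and of level (66.7 to 403 CPM) numbered 569. Their median log2 fold change was 0.22, with 32.3% called higher, beside 0.37 and 70.9% for the members. By exon length (537.3 to 3936 bases) in place of transcript length, 1026 genes had a median of 0.13 and 20.1% called higher. Within these ranges length was not matched further. From 500 to under 1000 transcript bases, at any level, the medians were closer, 0.38 for members and 0.32 for other genes. From 1000 to under 2000 they were 0.35 and 0.19. These are descriptions, since the members were chosen by name and genes are not independent replicates.

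The members' difference was smaller when length was taken into account within the fit. With an offset for each library's trend on exon length, the median log2 fold change was 0.16 and 11 members were called, beside 2.16% of all genes. These were Rpl11, Rpl13, Rpl21, Rpl28, Rpl31, Rpl35a, Rplp2, Rps2, Rps9, Rps19 and Rps20, and the genes of like exon length and level had a median of 0.03. An offset on principal transcript length, chosen after seeing the data, gave 0.06, with 60 of 78 members positive and 2 called, Rpl18 and Rps20, beside 1.17% of all genes. Those are the called members with the longest annotated transcripts. With the exon length slope of each library as a covariate, the median was 0.02, 47 of 79 members were positive, and 0 were called by edgeR, with 0 at an unadjusted p under 0.05 and 0% of all genes called. The 3 lowest slopes all belong to rapamycin libraries, so slope and treatment cannot be fully told apart.

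Leaving out FR1, FR2 and MR2, also chosen after seeing the data, left 77 of 79 members positive at a median of 0.21. In that fit 0 members were called by edgeR, beside 0.0058% of all genes, and 23 had an unadjusted p under 0.05. The count of all genes at that unadjusted level is not given here. Rpl14 was then at 0.33 (SE 0.11, edgeR adjusted p = 0.227) and Rps6 at 0.23 (SE 0.12, edgeR adjusted p = 0.43). Left out singly, FR1, FR2 and MR2 each reduced the count of called members from 56 to 22, 21 and 24, and MC4 and MR4 to 28 and 37. The members at an unadjusted p under 0.05 changed less, from 76 to 75, 74 and 74, and to 73 and 73. Shares of all genes called in these fits are not given here. The medians in these fits were 0.36, 0.35 and 0.31 without FR1, FR2 and MR2, and 0.38 and 0.35 without MC4 and MR4. Of the members, 20 were called in all 16 fits that left out 1 library, among them Rpl8, Rpl11, Rpl13, Rpl14, Rpl19, Rpl23, Rpl28, Rpl29, Rpl31, Rpl32, Rpl35, Rpl36, Rplp1, Rplp2, Rps2, Rps9, Rps15, Rps19 and Rps20.

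**Figure D5:**
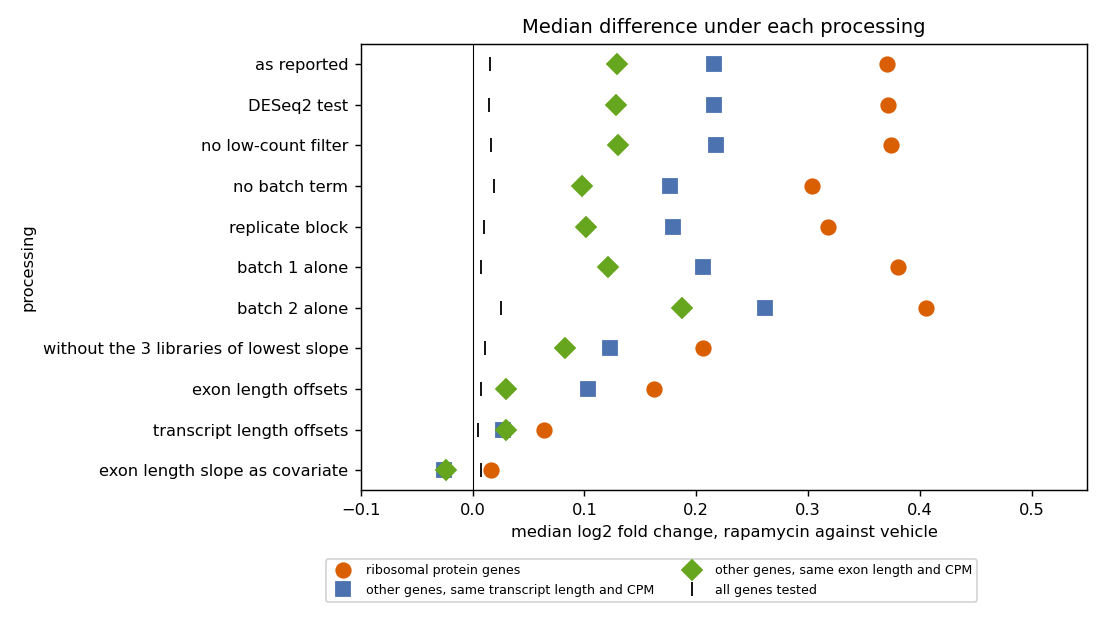
Median log2 fold change, rapamycin against vehicle, of the ribosomal protein genes, of other genes of like length and level, and of all tested genes under 11 ways of processing. The members lie between 0.02 and 0.16 where length enters the fit, at 0.21 without the 3 libraries of lowest slope, and between 0.30 and 0.41 otherwise.

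Ribosomal proteins and partners outside the name pattern were fitted in the same direction. Fau, which encodes a small subunit protein fused to a ubiquitin-like protein, was called at 0.36 (edgeR adjusted p = 0.0235). Gnb2l1, which encodes the small subunit scaffold Rack1, was fitted at 0.23, and Rpl36al at 0.35, without a call (edgeR adjusted p of 0.102 and 0.0623). Of 16 other mRNAs with a TOP motif, 4 were called higher and 0 lower, beside 6.46% and 6.86% of all genes: the elongation factor genes Eef1d and Eef1g, at 0.23 and 0.25, the initiation factor gene Eif3f at 0.41 and the nascent chain factor Btf3 at 0.37. Their median was 0.20. Eef1a1 and Eef2, central factors of peptide elongation, were fitted at 0.16 and 0.08 (edgeR adjusted p of 0.286 and 0.392). Of 6 hosts of small nucleolar RNAs, Gas5 was called, at 0.43.

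Of 40 genes that assemble ribosomes, 4 were called higher and 5 lower, with a median of 0.01. Over all tested genes, 6.46% were called higher and 6.86% lower. The 4 were Nop16, Sbds, Nhp2 and Nop10, at 0.26 to 0.39, with exon lengths of 1109 to 2033 bases. The 5 lower were Rrp12, Tsr1, Utp20, Heatr1 and Polr1a, the large subunit of RNA polymerase I, with fitted values of -0.43 to -0.27 and exon lengths of 3837 to 11871 bases. Other groups were compared as well, beside the 6.46% and 6.86% of all genes called higher and lower. Nuclear genes of the respiratory chain had 49 of 76 called higher, 0 lower and a median of 0.35. Mitochondrial ribosomal protein genes had 26 of 76 called higher, 0 lower and a median of 0.25, below that of the members. With transcript length offsets these medians were 0.02 and 0.05, beside 0.06 for the members.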

How the data were processed

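The deposited table holds raw counts of read pairs per gene, made by the authors from oligo(dT)-selected, paired-end libraries. Per the labels and the study's methods, reads were checked with FastQC 0.11.9, trimmed with Trimmomatic 0.39 (Trim Galore is also named), aligned with HISAT2 2.2.1 to mm10 and counted with featureCounts 2.0.3; multi-mapping settings are not given in the sources used here. Counts depend on that annotation, and pairs shared between genes or pseudogenes may be lost.

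Genes were filtered with filterByExpr (minimum count 10; 16553 genes kept), scaled by TMM and tested with edgeR 4.0.16 in R 4.3.3, with sex, treatment and batch as terms, or group and batch for the sexes and the interaction; a gene was called at an adjusted p under 0.05. Alternatives were DESeq2 1.42.0 or its size factors, no filter, no batch term, a replicate block, length offsets, the length slope as covariate, single batches and left-out libraries. The biological coefficient of variation was 0.186, and precision rests mainly on the number of samples, since members had many counts. CPM values are TMM-scaled, except the level limit, the levels per kilobase and the marker sums. The SE is the log2 fold change divided by the square root of F. Length trends were loess fits (span 0.4). Principal transcripts came from GENCODE M21, the longest where several were marked. No replicate pair agreed within counting noise.

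The members and lists were chosen with earlier results of these data known. Genes named are the 10 of smallest p, the 5 lowest fold changes, the 5 highest and lowest levels per kilobase of exon, stalk, 5S, Rps6, Rpsa, Rps27a and X-linked genes, paralogs with their parents, genes next to the level limit, and the 3 of smallest p for the interaction and for sex. A few genes that entered these counts are not reported here by name.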

Additional observations from a re-analysis of the deposited data

Results flagged for a closer look

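In each group of 4, the sample farthest from the others was judged by Dixon's test at the 95% level. This was done for 35 named members and the summed share, and of 144 such groups 17 passed. The members vary together over the same libraries, so these tests are not independent. Their number cannot be set against a rate of 1 in 20. FC4 was low in the share, at 1.06% (others 1.55% to 1.64%), in Rps19 at 94.3 CPM, Rplp1 at 240.2 CPM, Rpl15 at 106 CPM and Rpl10 at 162 CPM. MC4 was low in Rps15 at 171 CPM, Rps20 at 69.1 CPM, Rpl28 at 118 CPM, Rps2 at 238 CPM, Rpl15 at 118 CPM, Rpl13a at 206 CPM, Rps6 at 161 CPM, Rplp0 at 150.1 CPM and Rpl10 at 164 CPM. Both are the batch 2 libraries of their groups, and together they hold 14 of the 17 flags. FC3 was high in Rps29, at 141 CPM against 81.7 to 90.8. MR2 was high in Rpl8, at 427 CPM against 293 to 312, and in Rps27, at 166 CPM against 80.0 to 91.3.

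Outside the members, Rpl3-ps1 had 3117 read pairs in MR3 against 22 to 98 in the other 15 libraries. In MR3 the pseudogene took 3117 of the pairs assigned to either locus and Rpl3 4655, whereas Rpl3 had 6338 to 12343 pairs elsewhere. How this came about was not tested.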

How the results depend on the processing

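The members' median was above 0 under every setting tried, and 0 members were called lower in any. With the exon length slope as covariate, however, it was only 0.0165, with 0 members at an unadjusted p under 0.05. That value does not establish a direction. The count called higher in both sexes, 56, was 0 without the batch term, 27 with the replicate block, 11 with exon length offsets, 0 with the exon length slope as covariate, 24 in batch 1 alone, and, chosen after seeing the data, 0 without FR1, FR2 and MR2, 2 with transcript length offsets and 0 in batch 2 alone. It was 56 with DESeq2 size factors, 68 without the low-count filter and 21 to 73 leaving out 1 library. Besides the reported fit, the share of all genes called is given above only for some settings. These are the length fits, the single batches and the fit without FR1, FR2 and MR2. The median moved to 0.16 with exon length offsets, 0.0165 with the slope and 0.0636 with transcript length offsets, and ran from 0.31 (without MR2) to 0.42 (without MR3) leaving out 1 library. In females the count of 0 became 20 with DESeq2, 27 without the filter, 13 in batch 1 alone and 0 to 40 leaving out 1 library (40 without FR4, 3 without MR2, 1 without MR4). In males it became 19 without the filter, and between vehicle-fed sexes 1.

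Among 35 named members, signs turned, never with a call, for Rps15a without batch term (-0.0344), with the slope (-0.0884) and without the 3 libraries (-0.0286), and it ran from -0.00218 to 0.0596 leaving out 1 library. Rpl3 turned with the slope (-0.27), without the 3 libraries (-0.00936) and with transcript offsets (-0.0943). With the slope, so did Rpl7l1 (-0.0636), Rpl5 (-0.0273), Rpl15 (-0.023), Rpl13a (-0.0500) and Rpl7 (-0.0343); with transcript offsets, Rps3a1 (-0.00255), Rpl36a (-0.0378), Rps27 (-0.0604), Rps29 (-0.0346) and Rps21 (-0.0946). The cause of these changes was not tested. Neither the labels nor the data settle whether replicate numbers pair the samples. Deviations of same-numbered samples correlated at -0.157 to 0.675 (median 0.252, 21 pairs), and those of other pairs of the same batch at -0.167 to 0.406 (median 0.107, 33 pairs). Between vehicle and rapamycin, the 3 female pairs had 0.435, 0.447 and 0.675, and the 4 male pairs -0.157 to 0.351. With the replicate block, 0 members were called in either sex, with 23 in females and 67 in males at an unadjusted p under 0.05. The counts over all genes with this block are not given here.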
